A study of Mus musculus with 8 samples.

Results

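The genes described here encode the proteins that stand directly around the LPS receptor TLR4: the co-receptors Cd14 and Ly96, the TIR adaptors Myd88, Tirap, Ticam1 and Ticam2, and the IRAK family members Irak1, Irak2, Irak3 and Irak4. They were taken by gene symbol from a list of names, and all 10 were found among the 21080 genes with a value in the 8 RNA-seq samples. All 10 also passed the filter on low values, which kept 16284 genes. The samples were bone marrow-derived macrophages (BMDMs), grown from femoral marrow of C57BL/6 mice in M-CSF. Nudt21-cKO mice were Nudt21 fl/fl with LysM-Cre, which deletes exons of Nudt21 in myeloid cells, and WT mice were sex-matched littermates that carried LysM-Cre as well, so that Cre was shared by every group. Each genotype was measured without stimulation (0 h) and after 50 ng/ml IFNγ overnight followed by 50 ng/ml LPS for 4 h. There were 4 groups with 2 samples apiece, and a sample was a pool of cells from 2 mice. IFNγ, LPS and their timing changed together between 0 h and 4 h and cannot be told apart.

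LPS released from Gram-negative bacteria is passed by CD14 to MD-2, the product of Ly96, which sits on the ectodomain of TLR4 and holds the lipid A part. At the plasma membrane TIRAP bridges the receptor to MyD88, and MyD88 recruits IRAK4, IRAK1 and IRAK2 into the Myddosome, from which NF-κB and MAP kinases are activated. From endosomes TRAM, the product of Ticam2, links the receptor to TRIF, the product of Ticam1, which leads to IRF3 and type I interferon. IRAK-M, the product of Irak3, is best known as a brake on this signalling in macrophages. Nudt21 encodes a subunit of cleavage factor Im, which takes part in the choice of polyadenylation site.

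The deposited values were read coverage per base, and each sample was scaled here to the same summed coverage (depth-adjusted coverage). Summed over genes, coverage ranged from 14950347 to 17954882 in the 8 samples, so the scale factors were 0.918 to 1.102. Among genes with few reads and 1 annotated transcript, the values of those with 2 or more exons were whole numbers of bases far more often over the exons without the last one than over all exons (62.2% against 4.7% for 2 exons, and 39.0% to 47.6% against 5.5% to 7.3% for 3 to 5 exons). The values thus appear to leave out the last exon, and with it most of the 3' UTR, which was not settled for genes with several transcripts. For Ticam1, which has 2 exons, all 8 values were whole over the 93-base first exon at chr17:56276694-56276786 (GRCm38, minus strand), so they rest on few bases. By the same rule the values of Cd14, also annotated with 2 exons, would come from its first exon. Cd14 has 2 annotated transcripts, however, and this was not tested. Nudt21 itself was lower in every cKO sample, at 157 and 159.9 reads per base against 751 and 667 for the resting WT samples, and at 135 and 106 against 579 and 634 for the stimulated ones. The log2 fold change of Nudt21 in resting cells was -2.16 (limma adjusted p = 0.00515), and in stimulated cells it was -2.34 (limma adjusted p = 0.00365). The summed coverage of 8 macrophage markers was 124097 to 138201 at 0 h and 53893 to 61303 at 4 h. Of the other cell types checked, 8 neutrophil genes, led by S100a9, summed to 19077 to 34209, and 5 dendritic cell genes, led by Clec9a, summed to 12.4 to 34.1 at 0 h and, at 4 h, to 1437 and 2365 in WT and 1122 and 1189 in cKO. For 4 B cell genes the resting sums were 130.5 and 149.9 in the WT samples against 63.0 and 72.7 in the cKO samples, and the stimulated sums 11.1 and 12.2 against 1.56 and 7.66. The 6 T cell genes summed to 40.8 to 216, most of it from Cd4 at 0 h and from Lck at 4 h, and the defining marker Cd3e reached at most 0.969. The part of these marker changes in the results was not tested, and in bulk RNA fewer cells of a type and less RNA per cell cannot be told apart.

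Among the 10 genes Cd14 had the highest coverage per base in every group. At 0 h in WT it was followed by Irak1, Myd88, Irak2, Irak4, Ly96, Irak3, Ticam2, Tirap and Ticam1, with means from 2323 ± 96.5 reads per base for Cd14 to 24.6 ± 1.85 for Ticam1 (SD, n = 2). Of these neighbours in the order only Irak4 and Ly96 overlapped between their samples. In cKO at 0 h the samples of Irak1 and Myd88, and those of Ticam2 and Tirap, overlapped, and Ly96 stood above Irak4 without overlap. At 4 h the order was Cd14, Myd88, Irak2, Irak3, Ly96 and Irak1 in both genotypes, and Irak4 had moved down to 240.4 in WT and 212 in cKO, next to Ticam2 at 271.6 and 145. In WT at 4 h the samples of Irak3 and Ly96, and those of Ticam2 and Irak4, overlapped, and in cKO at 4 h no neighbours did. Myd88 and Irak2 had thus moved above Irak1, and Irak3 above both Irak1 and Irak4. The plot of coverage by sample shows these levels for each gene.

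**Figure D1:**
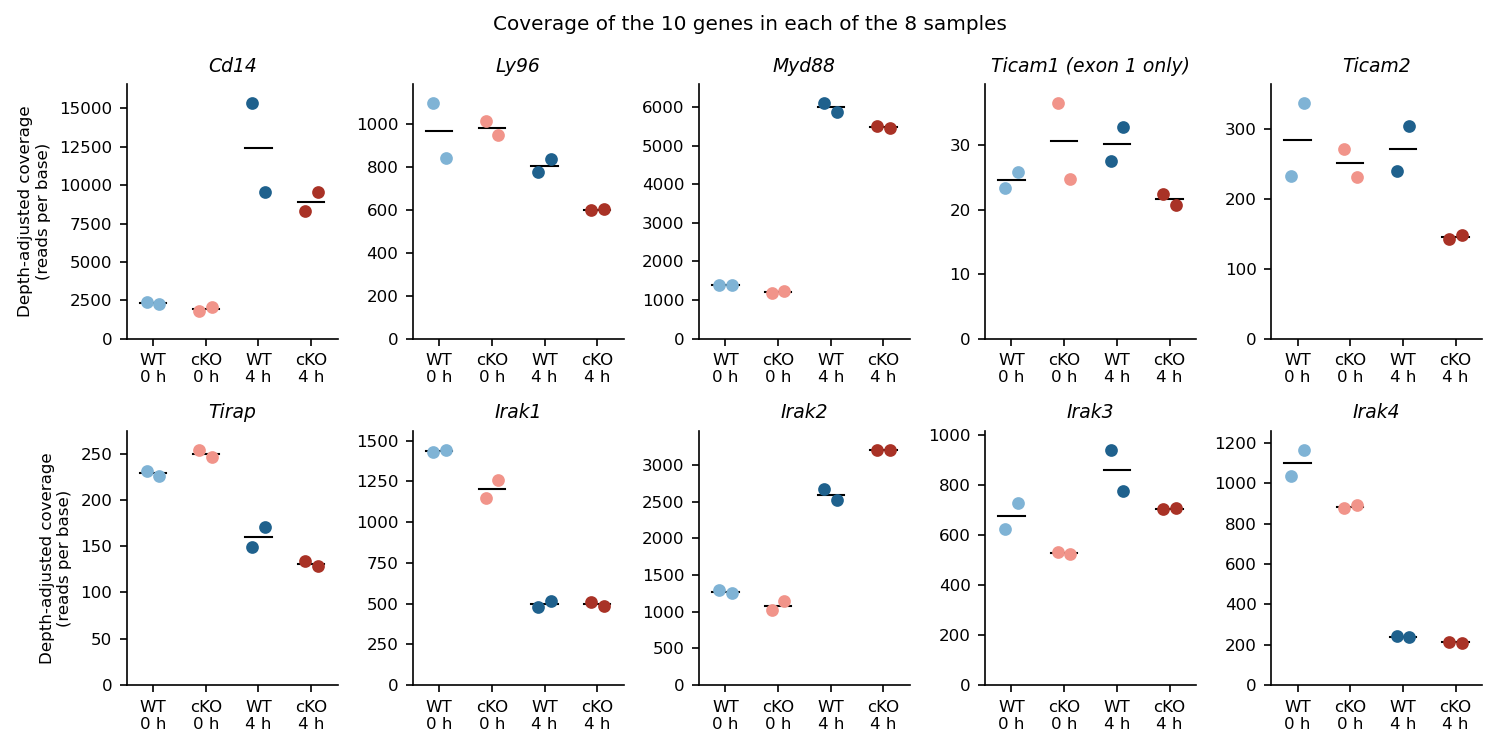
Depth-adjusted coverage (reads per base, linear axes from 0, 1 panel per gene) in each of the 8 samples, with points for the 2 samples of a group and a line for their mean. On the scale plotted, Cd14, Myd88 and Irak2 are higher in every 4 h sample than in any 0 h sample, and Irak1, Irak4 and Tirap are lower. Ticam2 and Ly96 are lowest in the cKO samples at 4 h. After median-centring only Irak4 of the lower genes still passed the test as lower, and the stimulation values of Ticam2 and Ly96 in cKO turned positive.

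The first comparison asked how stimulation changed the receptor module within each genotype. In WT 3 of the 10 genes rose (Cd14, Myd88 and Irak2), 3 fell (Tirap, Irak1 and Irak4) and 4 did not pass the test, all on the equal-sum scale, while after median-centring Tirap turned positive and Irak1 lost its call. In cKO 4 rose (the same 3 and Irak3), 5 fell (Ly96, Ticam2, Tirap, Irak1 and Irak4, of which the first 3 turned positive and Irak1 lost its call after median-centring) and Ticam1 did not pass. A gene was called at an adjusted p under 0.05 from limma, and by this rule stimulation changed 70.2% of all genes tested in WT (13.3% higher, 56.9% lower) and 69.5% in cKO (14.2% higher, 55.3% lower). The median of all genes tested was itself -1.19 on the log2 scale in WT and -1.07 in cKO, while the median of the 10 genes was 0.12 in WT and -0.59 in cKO. Which level counts as no change therefore matters for every gene with a moderate fall. After centring every sample on its median gene (median-centring), 60.2% of genes were called in WT (37.3% higher, 22.9% lower) and 58.6% in cKO (35.5% higher, 23.1% lower), and of the 10 genes 8 rose and 1 fell in WT and 7 rose and 1 fell in cKO. Cd14, Myd88 and Irak2 rose and Irak4 fell in both genotypes under the equal-sum, unscaled and centred values alike.

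Of the 2 co-receptors, Cd14, the membrane-anchored protein that hands LPS on, lies on chromosome 18 and showed the largest rise of the 10 genes in WT and, with Myd88, in cKO. Before stimulation the WT samples had a coverage of 2392 and 2255 and the cKO samples one of 1823 and 2024. At 4 h the WT samples reached 15337 and 9567 and the cKO samples 8295 and 9560.2. Every stimulated sample exceeded every resting one, but the WT samples at 4 h lay far apart. The rise was 5.22-fold in WT (log2 2.38, standard error 0.24, limma adjusted p = 0.000621) and 4.64-fold in cKO (log2 2.21, standard error 0.24, limma adjusted p = 0.000873). Ly96, the lipid-binding partner of TLR4, lies at chr1:16688051-16709611 (plus strand) and did not follow it. Resting WT samples had an Ly96 coverage of 1096.5 and 840.0, and resting cKO samples one of 1015.5 and 949.9. Stimulated WT samples were at 777 and 836, and stimulated cKO samples at 598 and 601.5. Both stimulated cKO samples were thus the lowest of the 8. Its log2 fold change was -0.25 in WT (limma adjusted p = 0.195) and -0.71 in cKO (limma adjusted p = 0.00976), and with median-centring both turned positive, to 1.16 and 0.53. The value in WT depended on the resting samples, at -0.44 without WT replicate 2 (limma adjusted p = 0.0295) and -0.060 without WT replicate 1 (limma adjusted p = 0.671), and the fall in cKO missed the threshold without cKO replicate 3 at 0 h (limma adjusted p = 0.051). The ratio of Cd14 to Ly96 within a sample, which no scaling affects, went from 1.80 to 2.68 at 0 h to 11.4 to 19.8 at 4 h.

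Of the 4 adaptors only Myd88 rose on the main scale. Myd88, the adaptor used by most Toll-like receptors and by the IL-1 receptor family, lies at chr9:119335934-119341411 (GRCm38, minus strand). Its resting coverage was 1398 and 1380.4 for WT against 1170.4 and 1219.7 for cKO. After stimulation WT samples had 6099 and 5885, and cKO samples had 5505.5 and 5452. The samples of each group lay close together and the times were far apart. The rise was 4.31-fold in WT (log2 2.11, standard error 0.09, limma adjusted p = 4.44e-05) and 4.59-fold in cKO (log2 2.20, standard error 0.09, limma adjusted p = 4.38e-05). Some exons of Myd88 overlap those of Acaa1a on the other strand, and the library kit does not mark strand.

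The rise of Myd88 with stimulation prompted a search of the promoters of the 10 genes for 2 sets of letters, each on both strands. These were the letters of the IFNγ-activated site (GAS) and of the interferon-stimulated response element (ISRE). RefSeq promoter windows of GRCm38.p6, from 250 bases before to 50 bases after a gene's start, were matched for 7 of the genes (Myd88, Ticam1, Tirap, Irak1, Irak2, Irak3 and Irak4). The GAS letters TTCNNNGAA were found in 8.3% of all 32851 windows and those of the ISRE core, GAAA and GAAA with 2 unspecified bases between them, in 3.4%. Among the 7 genes only Myd88 held either, and it held both. Cd14, which also rose, had no window and could not be compared. They overlap and lie 46 to 38 and 40 to 31 bases before the RefSeq start of Myd88 at base 119340018, which is inside the span given above because GENCODE has a further transcript that starts upstream. The 30-base stretch around them, at chr9:119340042-119340071 on the minus strand, is printed 5′ to 3′ with the bases of the 2 matches in capitals.
Myd88 promoter: gcggagcTTCTCGGAAAGCGAAAgaaggag
A loose form of the NF-κB site, GGG and CC with 5 unspecified bases between them, was found in 50.8% of all windows and in those of the other 6 genes, and the AP-1 letters TGANTCA were found in 7.8% of all windows and in none of the 7. A match describes the sequence only and is not a binding site. Whether the matched letters take part in the rise of Myd88 was not tested.

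Tirap, Ticam1 and Ticam2 did not share the rise of Myd88. Tirap, the sorting adaptor that brings MyD88 to the membrane, lies at chr9:35184551-35200291 (minus strand). Resting WT samples had a Tirap coverage of 231 and 226, below the 254 and 246 of resting cKO samples. Stimulated WT samples were at 149.5 and 171, above the 134 and 128 of stimulated cKO samples. Every stimulated sample was below every resting one, and some exons of Tirap overlap those of Srpr and Gm39318 on the other strand. The log2 fold change was -0.52 in WT (limma adjusted p = 0.00794) and -0.93 in cKO (limma adjusted p = 0.000966), but after median-centring it was 0.90 and 0.31, so its direction depends on the scaling. Ticam2, the bridging adaptor of the endosomal branch on chromosome 18, was at 232 and 336 in resting WT samples and at 271 and 231 in resting cKO samples. With stimulation WT samples had 239.7 and 303.5 reads per base, and cKO samples 142 and 148. The WT samples of the 2 times overlapped, and both stimulated cKO samples were below all others. Its log2 fold change was -0.051 in WT (limma adjusted p = 0.861) and -0.79 in cKO (limma adjusted p = 0.0272), and the median-centred values were 1.37 and 0.45. The call in cKO was lost without any one of the 4 cKO samples (limma adjusted p from 0.0615 to 0.119).

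Ticam1, the adaptor of the interferon branch, had the lowest coverage per base of the 10 genes, read from its first exon alone. The resting samples were at 23.3 and 25.9 (WT) and at 36.5 and 24.7 (cKO), and the stimulated ones at 27.5 and 32.9 (WT) and at 22.4 and 20.8 (cKO). In WT both stimulated samples were above both resting ones, and in cKO both were below. Neither change passed the test (log2 0.29, limma adjusted p = 0.278 in WT, and log2 -0.48, limma adjusted p = 0.104 in cKO). After centring the value was 1.71 in WT and 0.76 in cKO, and on the main scale the value in cKO was -0.76 without cKO replicate 4 at 0 h (limma adjusted p = 0.0243) and -0.20 without cKO replicate 3 (limma adjusted p = 0.374). Relative to Ticam2, the level of Myd88 within a sample went from 4.10 to 6.03 times at 0 h to 25.4 and 19.4 times for stimulated WT samples and 38.8 and 36.9 times for stimulated cKO samples.

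The 4 IRAK genes moved in different directions. Irak2, the family member tied to sustained signalling, lies at chr6:113638467-113695026 (plus strand). WT samples went from 1293 and 1252 at rest to 2668 and 2524 reads per base with stimulation. The cKO samples went from 1018 and 1140.2 to 3205 and 3206. All stimulated samples exceeded all resting ones, and the cKO samples went from the lower position at 0 h to the higher one at 4 h. The rise was 2.04-fold in WT (log2 1.03, standard error 0.10, limma adjusted p = 0.000538) and 2.97-fold in cKO (log2 1.57, standard error 0.10, limma adjusted p = 0.000162). Irak3, the inhibitory member, lies at chr10:120141648-120202130 (minus strand). WT samples of Irak3 went from 623 and 728 to 939.9 and 776.5, and cKO samples from 533 and 522 to 705 in both. Its groups did not overlap between the times in either genotype, but the WT samples were far apart. The rise was 1.34-fold in cKO (log2 0.42, limma adjusted p = 0.042) and was lost without any one of the 4 cKO samples (limma adjusted p from 0.114 to 0.133). In WT it was log2 0.34 (limma adjusted p = 0.0751) and ran from 0.21 without WT replicate 1 at 4 h (limma adjusted p = 0.23) to 0.48 without WT replicate 2 (limma adjusted p = 0.0303). After centring it passed in both genotypes (log2 1.76 and 1.66).

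Irak1 and Irak4 both fell on the equal-sum scale. Irak4, the kinase that joins MyD88 first, lies at chr15:94543643-94581815 (plus strand) and had the deepest fall of the 10 genes. WT samples went from 1037 and 1166 to 241 and 239.9, and cKO samples from 875 and 893 to 214 and 209. The 2 samples of each stimulated group differed by little. Irak4 fell by 2.19 on the log2 scale in WT (standard error 0.10, limma adjusted p = 5.68e-05) and by 2.06 in cKO (standard error 0.10, limma adjusted p = 7.33e-05), and still by 0.78 and 0.82 after centring. Irak1, the kinase and scaffold that IRAK4 activates, lies on chromosome X from 74013914 to 74023918 (minus strand). Resting coverage of Irak1 was 1433 and 1444 (WT) against 1149 and 1259 (cKO), and stimulated coverage was 479 and 518 (WT) against 509 and 486 (cKO). The genotypes were apart at 0 h and overlapped at 4 h. Irak1 fell by 1.53 on the log2 scale in WT (limma adjusted p = 0.000155) and by 1.27 in cKO (limma adjusted p = 0.000298), which is close to the fall of the median gene, and the call was lost after centring (log2 -0.11, limma adjusted p = 0.397 in WT, and log2 -0.033, limma adjusted p = 0.799 in cKO). Exons of Irak2, Irak3 and Irak4 overlap those of Gm43963, of Gm47009 and Tmbim4, and of Twf1 on the opposite strand, and Irak1 holds the microRNA genes Mir718 and Mir5132, so that some reads may belong to these.

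**Figure D2:**
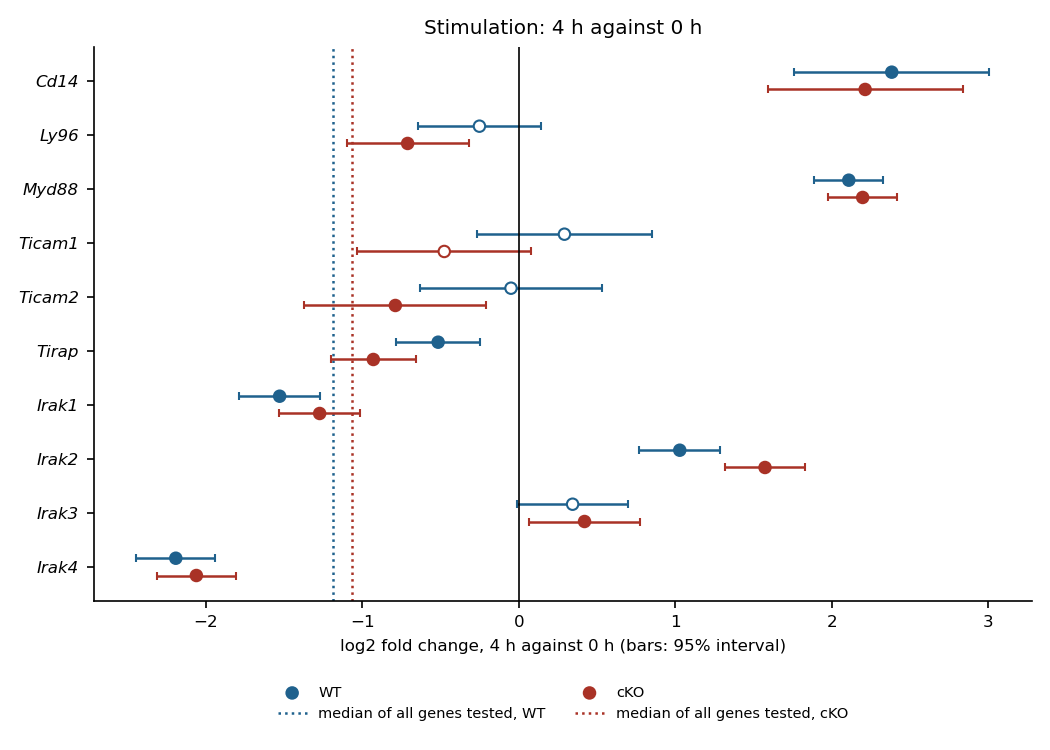
Log2 fold change of each gene at 4 h against 0 h in WT and cKO, with 95% intervals from limma, on the equal-sum scale. Filled points passed an adjusted p under 0.05, open points did not, and dotted lines mark the median of all genes tested (-1.19 in WT and -1.07 in cKO), above which 8 of the 10 genes lie in each genotype.

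The balance between the IRAK genes can be read within each sample, independently of any scaling. Resting WT samples had 1.25 and 1.07 times as much Irak2 as Irak4, and resting cKO samples 1.16 and 1.28 times. With stimulation this became 11.1 and 10.5 times for WT and 14.9 and 15.3 times for cKO. The genotypes overlapped at 0 h and stood apart at 4 h, with cKO higher. Irak2 relative to Irak1 went from 0.867 to 0.906 over the 4 resting samples to 5.56 and 4.87 with stimulation for WT and to 6.29 and 6.59 for cKO. The ratio of Irak3 to Irak2, the inhibitory member against the activating one, was 0.458 to 0.581 over the resting samples. After stimulation WT samples had 0.352 and 0.308, and both cKO samples had 0.22. Stimulated cKO samples thus had the least Irak3 per Irak2. By contrast Myd88 relative to Irak4 was nearly the same in both genotypes at 4 h, at 25.3 and 24.5 for WT against 25.7 and 26.1 for cKO. The ratio of Irak1 to Irak4 was 1.24 to 1.41 over the resting samples and 1.99 to 2.37 over the stimulated ones. Between the bridging adaptors, Tirap relative to Ticam2 was 0.624 and 0.564 in stimulated WT samples and 0.944 and 0.867 in stimulated cKO samples, and overlapped between the genotypes at rest. These ratios were chosen after the values had been seen and are given without a test.

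**Figure D3:**
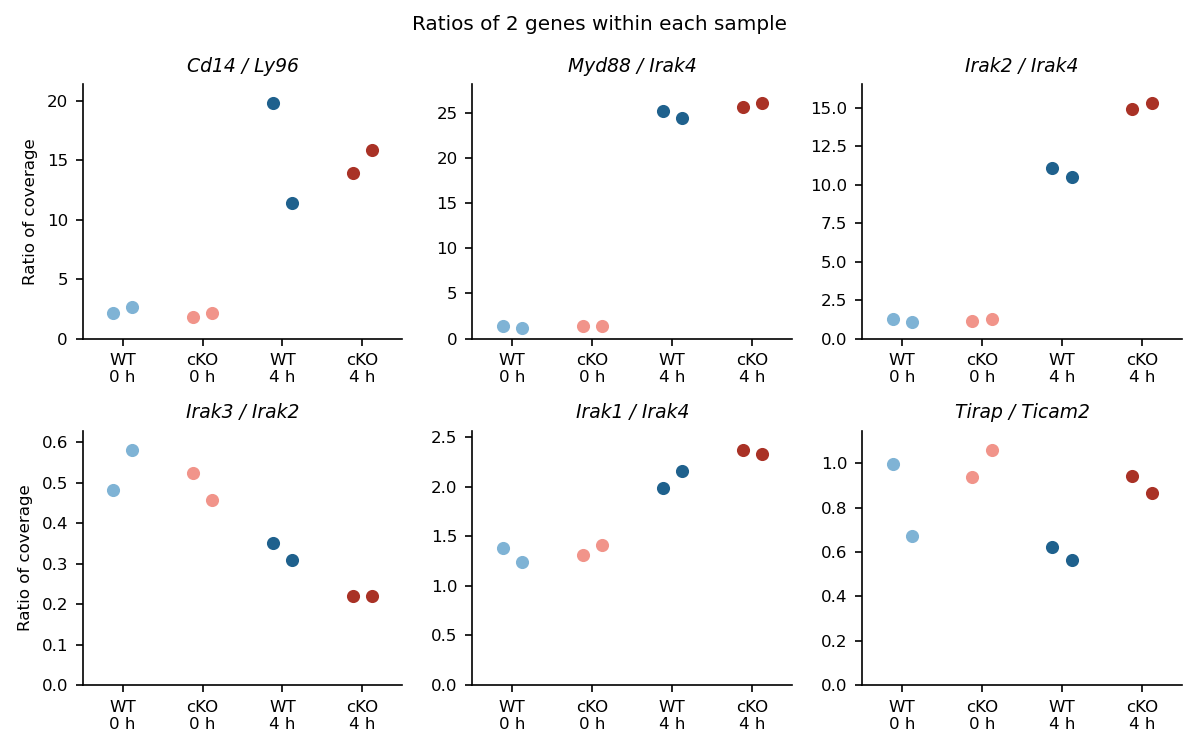
Ratios of depth-adjusted coverage of 2 genes within each sample (no unit, linear axes from 0), with 1 point per sample. Irak2 relative to Irak4 is 1.07 to 1.28 in all resting samples and 10.5 to 15.3 in the stimulated ones, where both cKO samples exceed both WT samples, while Irak3 relative to Irak2 is lowest in stimulated cKO samples.

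The second comparison asked whether loss of Nudt21 changed the module at either time. None of the 10 genes passed the limma test at 4 h or at 0 h, although 13.6% of all genes tested passed at 4 h (9.22% higher, 4.42% lower) and 4.46% at 0 h (2.36% higher, 2.10% lower). At an unadjusted p under 0.05, 4 of the 10 genes passed at 4 h (Ly96, Ticam2 and Tirap lower, Irak2 higher), against 31.2% of all genes, and 2 passed at 0 h (Irak1 and Irak4, both lower), against 20.4%. On the equal-sum scale the cKO samples at 4 h lay below both WT samples for 8 genes, above both for Irak2, and overlapped them for Irak1. Over all genes tested 22.5% lay below and 33.7% above in this way. Without scaling 3 genes lay below (Ly96, Ticam1 and Ticam2) and 3 above (Myd88, Irak1 and Irak2), against 13.9% and 47.3% of all genes, and after median-centring 8 lay below and none above, against 38.3% and 25.8%. At 0 h the cKO samples lay below for 6 genes, above for Tirap, and overlapped for Ly96, Ticam1 and Ticam2, against 30.3% below and 26.5% above over all genes, and without scaling 4 lay below and 2 above, against 20.7% and 35.6%. The median log2 fold change of the 10 genes was -0.28 at 4 h and -0.23 at 0 h, and that of all genes tested was 0.071 and -0.0097. Both genotype comparisons and both stimulation comparisons share samples and are not independent. For a comparison of 2 with 2 samples the smallest p that an exact two-sided permutation test allows is 0.333.

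The lowest log2 fold change of the 10 genes at 4 h was that of Ticam2, whose coverage was 145 ± 4.27 reads per base in cKO and 271.6 ± 45.1 in WT (SD, n = 2 each). Its log2 fold change was -0.90 (95% interval -1.48 to -0.31, limma adjusted p = 0.0629), a fold of 0.537. It passed the test after median-centring (log2 -1.04, limma adjusted p = 0.0352) and with an intensity trend in the variance (limma adjusted p = 0.0194), and also met the rule of a fold change above 1.5 with an unadjusted p under 0.05, and over all alternatives the adjusted p of limma ran from 0.0194 to 0.205. At 0 h the same gene had a log2 fold change of -0.16 (95% interval -0.74 to 0.43). Ticam2 shares exons on the same strand with Tmed7, a cargo receptor gene whose read-through form with Ticam2 encodes an inhibitor of this adaptor. Tmed7 went the other way at 4 h, with 1605 and 1582 reads per base in cKO and 1071.5 and 1025 in WT (log2 0.60, limma adjusted p = 0.0174). How reads in the shared exons were divided between the 2 genes was not tested.

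The other genes with lower values in cKO at 4 h were closer to WT. Tirap was at 131 ± 4.07 in cKO and 160 ± 15.2 in WT (SD, n = 2 each), a log2 fold change of -0.29 (95% interval -0.56 to -0.017, limma adjusted p = 0.142), which passed after centring (log2 -0.44, limma adjusted p = 0.0337; range over all alternatives 0.0337 to 0.619). Ly96 was at 599.9 ± 2.35 in cKO and 806 ± 42.0 in WT, a log2 fold change of -0.43 (95% interval -0.82 to -0.035, limma adjusted p = 0.135). For Cd14 the means were 8927 ± 895 in cKO and 12452 ± 4080 in WT, and the log2 fold change of -0.44 (95% interval -1.07 to 0.18) was smaller than the spread of the WT samples. Without WT replicate 2 at 4 h it was -0.78 (limma adjusted p = 0.0388) and without WT replicate 1 it was -0.10, so this gene alone changed its call with a single library in this comparison. Ticam1 had a log2 fold change of -0.48 (95% interval -1.03 to 0.079, limma adjusted p = 0.213) at 4 h and 0.29 at 0 h, both from its short first exon. Irak3 was at 705 ± 0.412 in cKO and 858 ± 116 in WT, a log2 fold change of -0.28 (limma adjusted p = 0.252).

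On the equal-sum scale Myd88, Irak1 and Irak4 showed the smallest differences between genotypes at 4 h. Their log2 fold changes were -0.13 (95% interval -0.35 to 0.091), -0.0022 (95% interval -0.26 to 0.25) and -0.18 (95% interval -0.44 to 0.069), and all 3 turned positive without scaling (0.083, 0.21 and 0.028). At 0 h the cKO samples of these genes were below both WT samples, with log2 fold changes of -0.22, -0.26 and -0.31 (limma adjusted p = 0.249, 0.243 and 0.165). Irak3 at 0 h was at 527 ± 7.68 in cKO and 675.5 ± 73.7 in WT (log2 -0.35, limma adjusted p = 0.246). Cd14 at 0 h had a log2 fold change of -0.27 (limma adjusted p = 0.609), and Ly96 one of 0.033 (95% interval -0.36 to 0.42).

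After median-centring 2 of the 10 genes were lower (Ticam2 and Tirap), against 8.71% of all genes lower and 7.20% higher, and without scaling Irak2 alone was higher, against 19.6% of all genes. On the equal-sum scale Irak2 was the only one of the 10 genes with both cKO samples above WT at 4 h. Its means were 3205 ± 1.06 in cKO and 2596 ± 102 in WT (SD, n = 2 each), a log2 fold change of 0.30 (95% interval 0.047 to 0.56, limma adjusted p = 0.113). The values passed the test without scaling (log2 0.52, limma adjusted p = 0.0414) and with an intensity trend (limma adjusted p = 0.0315), and the adjusted p ran from 0.0315 to 0.521 over all alternatives. At 0 h both cKO samples were below WT, at 1079 ± 86.4 against 1273 ± 28.7 (log2 -0.24, limma adjusted p = 0.275).

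**Figure D4:**
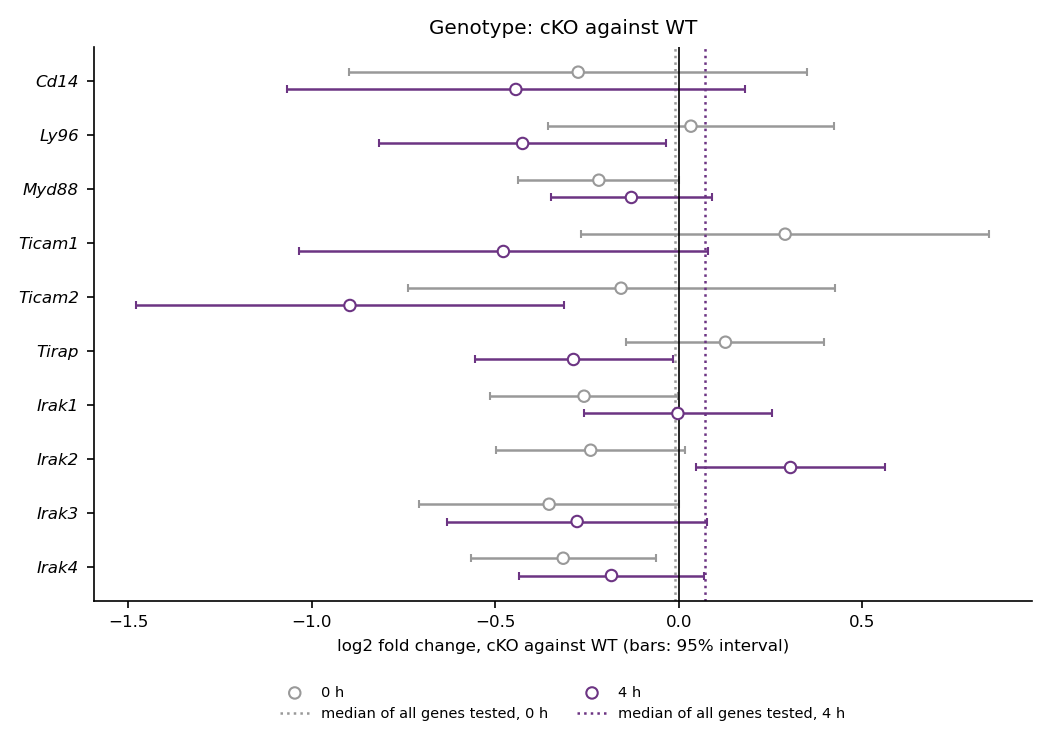
Log2 fold change of each gene in cKO against WT at 0 h and at 4 h, with 95% intervals from limma, on the equal-sum scale. All points are open because none passed an adjusted p under 0.05, and at 4 h the value of Ticam2 is the lowest (-0.90) and that of Irak2 the only one above 0 (0.30).

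An interaction term over all 8 samples tested whether the effect of genotype was the same at both times. None of the 10 genes passed in limma, against 2.51% of all genes tested, and 2 passed at an unadjusted p under 0.05 (Tirap and Irak2), against 20.2%. With an intensity trend in the variance Irak2 passed (limma adjusted p = 0.0348), and after median-centring it did not (limma adjusted p = 0.384). For Irak2 the genotype effect at 4 h exceeded that at 0 h by 0.54 on the log2 scale (95% interval 0.18 to 0.91, limma adjusted p = 0.126). For Tirap it was lower at 4 h by -0.41 (95% interval -0.80 to -0.033, limma adjusted p = 0.22). These were also the 2 genes whose cKO samples lay apart from WT in opposite directions at the 2 times, a pattern like that of Irak2 being held by 6.67% of all genes and one like that of Tirap by 3.33%. Which genes showed such a pattern changed with the scaling. Without scaling they were Myd88 and Irak1 (below WT at 0 h and above at 4 h) and Ticam1 (the reverse), and after median-centring Tirap alone. The share of all genes with such a pattern was computed only on the equal-sum scale, so these other counts cannot be set against all genes. The interaction values of Ticam1 (-0.77, 95% interval -1.56 to 0.019) and Ticam2 (-0.74, 95% interval -1.56 to 0.085) were larger than that of Tirap but less precise. For Myd88 (0.089, 95% interval -0.22 to 0.40), Irak3 (0.076) and Irak4 (0.13) the sign turned after centring. The genes whose log2 coverage followed that of Irak2 most closely over the 8 samples were Marcksl1 (Pearson r = 0.9987), Cxcl16 (0.9985) and Smpdl3b (0.9983), and 894 genes reached at least 0.95. Each correlation includes both times, and none was computed within a time.

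The rest of the pathway was described from 3 lists of genes around the module. Of 9 receptor and accessory genes 3 were lower in cKO at 4 h and none was higher, against 4.42% lower and 9.22% higher of all genes tested, and the list median was -0.25 on the log2 scale against 0.071 for all genes. The lowest was Ly86, which encodes MD-1, the partner of the TLR4 homologue CD180 (log2 -1.64, limma adjusted p = 0.0073). Of the called genes the smallest difference was that of Tlr4 itself, at 94.95 and 95.95 reads per base in cKO and 144 and 170 in WT (log2 -0.71, limma adjusted p = 0.0255). At 0 h Tlr4 was at 1071 and 1054 in cKO and 754 and 844.5 in WT (log2 0.41, limma adjusted p = 0.146), and its interaction passed the test (log2 -1.13, limma adjusted p = 0.0482), a call lost with the replicate block, under which no gene passed. Stimulation lowered Tlr4 in both genotypes (log2 -2.35 in WT and -3.47 in cKO, limma adjusted p = 8.03e-05 and 3.39e-05). Within a sample Cd14 was 1.70 to 3.17 times Tlr4 at 0 h and 56.4 to 106 times at 4 h, and Ly96 went from 0.902 to 1.45 times to 4.93 to 6.30 times. At 0 h 3 of the 9 genes were lower in cKO and none higher, against 2.10% and 2.36% of all genes, from Ly86 (log2 -1.05, limma adjusted p = 0.031) to Hsp90b1 (log2 -0.56, limma adjusted p = 0.0485). Stimulation raised 4 and lowered 3 in each genotype, against 13.3% and 56.9% of all genes in WT and 14.2% and 55.3% in cKO. Of these Tlr2, the receptor for bacterial lipopeptides, rose most (log2 1.57 in WT and 2.31 in cKO), and Lbp in WT (log2 -2.50) and Tlr4 in cKO fell most.

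Of 18 genes of the downstream relay, 3 were higher in cKO at 4 h (Ikbkg, Irf7 and Traf6) and none was lower, where 9.22% of all genes were higher and 4.42% lower. Ikbkg, which encodes the NEMO subunit of the IKK complex, had the largest value (log2 1.27, limma adjusted p = 0.00772), and Traf6, the ubiquitin ligase that IRAK1 and IRAK2 engage, the smallest of them (log2 0.44, limma adjusted p = 0.0388). At 0 h 1 was higher (Traf3, log2 1.29, limma adjusted p = 0.0212) and none lower, against 2.36% and 2.10% of all genes. Stimulation raised 9 and lowered 6 in each genotype, where it raised 13.3% and lowered 56.9% of all genes in WT and 14.2% and 55.3% in cKO, from Irf7 (log2 5.20 in WT and 6.25 in cKO) to Tab1 (log2 -3.57 and -4.01). Of 13 feedback inhibitors and ligases, 2 were higher in cKO at 4 h (Peli3, log2 0.87, limma adjusted p = 0.0431, and Tmed7) and none at 0 h. Stimulation raised 5 of them in each genotype, with Tnfaip3, which encodes the NF-κB inhibitor A20, the highest (log2 5.43 in WT and 5.65 in cKO), and lowered 4 in WT and 5 in cKO. Among those lowered, Sarm1 was listed at 0 in both stimulated WT samples. All stimulation counts of the lists are on the equal-sum scale. The lists were chosen with results of these data known, and their counts are a description.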

How the data were processed

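RNA-seq (unstranded kit, paired-end) was available for 8 samples, 2 in each of 4 groups. The labels give the stimulation for the 0 h samples too, and these were taken as unstimulated from their titles. The authors aligned reads to GRCm38 with HISAT2 2.2.1, quantified RefSeq genes with StringTie 2.1.7 and deposited coverage (a signal per base) for every gene, together with log2 fold changes and p-values of their own, which were not used. Multiplied by exon lengths of GENCODE M21 without the last exon, low values were whole numbers of bases (within 0.01) for 62.2% of values of 2-exon genes and 39.0% to 47.6% of those of 3- to 5-exon genes, and over the whole gene for 65.6% of values of 1-exon genes. How genes with several transcripts were combined is not given in the sources used here. Read numbers behind a value are unknown, so no counting interval was computed. No per-sample column was left unused (0 columns).

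Each sample was scaled to the mean summed coverage. Genes with a mean deposited coverage of at least 0.5 were fitted with limma 3.58.1 (R 4.3.3) on log2(value + 0.1), a scale that understates changes of low genes, with 1 mean per group over all 8 samples, two-sided tests and Benjamini-Hochberg adjustment. Alternatives covered scaling, pseudocount, filter, variance prior, the threshold of the study's methods (fold change above 1.5 and p under 0.05), a replicate block and left-out samples. Counts of non-overlapping samples under other scalings were added after the data had been seen. The members and gene lists were chosen with earlier results of these data known; all members are named, and of each list the called genes with the largest and smallest change and Tlr4. Each sample pooled 2 mice, and p-values measure the spread between these samples. Some marker genes are not reported here.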

Additional observations from a re-analysis of the deposited data

Results flagged for a closer look

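The genotype effect on Irak2 differed in direction between the times. Both cKO samples were below both WT samples at 0 h and above them at 4 h, and the difference of the 2 log2 fold changes was 0.5449 (limma adjusted p = 0.126). The effect on Tirap differed in the opposite sense, with both cKO samples above WT at 0 h and below at 4 h, and a difference of -0.4142 (limma adjusted p = 0.22). Neither passed the interaction test after adjustment in the main fit, while Irak2 passed with an intensity trend in the variance (limma adjusted p = 0.0348). Samples lay apart in the way of Irak2 for 6.67% and in the way of Tirap for 3.33% of all genes tested. These positions are on the equal-sum scale. Without scaling the genes whose samples lay apart in opposite directions at the 2 times were Myd88, Irak1 and Ticam1 instead, and after median-centring Tirap alone. The share of all genes with such a pattern was not computed under these 2 other scalings.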

How the results depend on the processing

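For the 10 genes, 391 of the log2 fold changes under another setting and 377 of those with 1 sample left out kept their direction and their side of the threshold, while 13 and 10 changed direction. Much of this agreement in direction was fixed in advance. Settings other than scaling and pseudocount reuse the same log2 fold changes, and so does leaving out a sample that a comparison does not use. Median-centring moved stimulation most: all genes called were 6080 higher and 3731 lower in WT and 5784 and 3765 in cKO, genes of the module called were 8 and 1 in WT and 7 and 1 in cKO, and the log2 fold change became positive for Ly96 (1.16), Ticam2 (1.37) and Tirap (0.90) in WT and for Ly96 (0.53), Ticam1 (0.76), Ticam2 (0.45) and Tirap (0.31) in cKO. It also gave 1419 genes and 2 of the module lower in cKO at 4 h and 174 genes with a positive interaction, and turned the interaction of Myd88 (-0.088), Irak3 (-0.10) and Irak4 (-0.045). Without scaling, 3185 genes and 1 of the module were higher in cKO at 4 h, and Myd88 (0.083), Irak1 (0.21) and Irak4 (0.028) turned positive. With an intensity trend in the variance, 2324 genes were higher and 1212 lower at 4 h (1 and 1 of the module), 747 and 716 at 0 h, and 720 and 301 in the interaction (1 of the module, Irak2, higher). The rule of fold change above 1.5 and p under 0.05 gave 1183 lower at 4 h (1 of the module, Ticam2), 961 higher and 1045 lower at 0 h, and 1799 and 800 in the interaction. With only the 4 samples of a time in the fit, which leaves fewer residual degrees of freedom, 175 genes were higher and 46 lower at 4 h and 96 and 49 at 0 h. For these differences the cause was not tested.

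The replicate numbers recur at both times within a genotype, so same-numbered samples may come from the same pool of mice. Over all genes tested, the difference between the 2 samples of a genotype at 0 h was hardly correlated with that at 4 h (0.020 in WT and 0.023 in cKO). This correlation cannot exclude shared pools. The main fit did not treat same-numbered samples as pairs, so its stimulation and interaction p-values ignore any such pairing. With the replicate block limma called 0 genes higher and 0 lower in the interaction, with 2789 at an unadjusted p under 0.05, and 10696 and 10575 genes for stimulation in WT and cKO, and the rise of Irak3 in cKO missed the threshold (limma adjusted p = 0.123).

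With 1 sample left out in turn, all genes called ranged from 328 (without cKO replicate 4 at 4 h) to 2259 (without WT replicate 2 at 4 h) higher and from 130 to 838 lower in cKO at 4 h, with 0 to 1 of the module lower. They ranged from 142 to 508 higher and from 102 to 447 lower at 0 h, and from 132 to 718 higher and 66 to 196 lower in the interaction. Between 3 and 5 genes of the module fell with stimulation in cKO. In the main fit stimulation in cKO lowered 5 of the 10 genes, and 55.3% of all genes tested. With 1 sample left out the sign changed for Irak1 at 4 h (-0.058 to 0.054), Ly96 (-0.16 to 0.23) and Ticam2 (-0.42 to 0.11) at 0 h, stimulation of Ticam2 in WT (-0.32 to 0.22), and the interaction of Cd14 (-0.51 to 0.17) and Irak3 (-0.062 to 0.21). With 2 samples in a group the spread itself is poorly known, and a group left with 1 sample is assumed to vary like the others. Depth as reads per gene is unknown, so no limit from counting was set.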
